A study of Mus musculus with 20 samples.

Results

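Matrix metalloproteinases are zinc-dependent proteases that cut collagens, proteoglycans and other proteins of the extracellular matrix. They are made as inactive proenzymes whose propeptide must be cut off, and they are held back by tissue inhibitors of metalloproteinases, the TIMP proteins. In cartilage the collagenase encoded by Mmp13 is known for opening the triple helix of type II collagen, which gelatinases and stromelysins then degrade further. Here 10 members of the family, Mmp2, Mmp3, Mmp9, Mmp10, Mmp11, Mmp12, Mmp13, Mmp14, Mmp19 and Mmp23, were taken by gene name from a table of 54532 genes. Of these 10 genes, 8 passed a filter that asked for 1 FPKM or more in 5 or more of the 20 libraries, as did 12752 genes of the table, while Mmp9 and Mmp10 did not pass. None of the 8 passed through 1 group alone, since each had a median above 1 FPKM in every group.

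The cells were mouse articular chondrocytes, taken at 6 weeks of age and treated for 48 h, and their RNA was sequenced. The 4 groups were 25-hydroxycholesterol-3-sulfate at 20 µM (25HC3S), 25-hydroxycholesterol at 20 µM (25HC), GW3965 at 2 µM and DMSO (Vehicle), with 5 libraries each. 25HC is an oxidised cholesterol, 25HC3S carries a sulfate on the same sterol, and GW3965 is a non-steroidal agonist of the liver X receptors. The labels give no strain or sex, and they leave unsaid whether each library stands for its own mouse or culture dish. The p-values thus weigh a difference against the scatter of these libraries only, and that scatter may be technical.

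Values are FPKM, fragments per length of gene scaled to depth, and depth was 14653777 to 19365220 fragments in genes per library. The chondrocyte label was checked against 11 markers, all of which passed the filter. Col2a1, the main collagen of cartilage, had 1059 to 3501 FPKM, Acan, its main proteoglycan, 57.8 to 86.3 FPKM, and Sox9, the master regulator of chondrocytes, 18.1 to 26.7 FPKM. The lowest by median were Matn1 (0.870 to 4.89 FPKM), Matn3 (2.67 to 10.3 FPKM) and Col9a2 (0.351 to 8.25 FPKM). Of the markers of other cells, all 14 for macrophages, 8 of 9 for synovial cells and fibroblasts, 5 of 6 for osteoblasts, 4 of 8 for osteoclasts, 2 of 6 for endothelial cells and 0 of 8 for neutrophils passed the filter. Col1a1, listed for synovial cells and fibroblasts, had 2228 to 5358 FPKM. Its median was 2649 FPKM, against 2232 FPKM for Col2a1. In such bulk RNA, fewer cells of a type and less RNA per cell cannot be told apart. Replicate 1 of 25HC3S and replicates 2, 3 and 4 of Vehicle stood apart from the other 16 libraries. In these 4 libraries 237 to 1171 genes had exactly 1 fragment, against 1808 to 2057 genes in the 16, and 16346 to 19648 genes were detected, against 20847 to 21607. Mitochondrial genes held 0.369% to 4.07% of the fragments in the 4 libraries, against 0.889% to 1.41% in the 16. Calls of the members are given with and without them, which leaves Vehicle with replicates 1 and 5.

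Mmp13, Mmp12, Mmp3 and Mmp10 lie in 1 cluster on chromosome 9, where the table lists 10 Mmp genes within 427 kb. In the coordinates of the file, which equal those of GENCODE release M21 on build GRCm38, Mmp13 is at chr9:7272514-7283331, Mmp12 at chr9:7344381-7369499, Mmp3 at chr9:7445822-7455975 and Mmp10 at chr9:7502352-7510240, all on the plus strand. The other members are at chr8:92827291-92853420 (Mmp2, plus strand), chr2:164940780-164955850 (Mmp9, plus), chr10:75923222-75936496 (Mmp11, minus), chr14:54431612-54445364 (Mmp14, plus), chr10:128790910-128800824 (Mmp19, plus) and chr4:155650655-155653384 (Mmp23, minus). The strand setting of the authors' counting is not given in the sources used here. Fragments of Mmp12 and its minus-strand neighbour Mmp1b, of Mmp11 and Chchd10, and of Mmp19 and Tmem198b and Gm47093 could therefore be shared where the genes overlap. Mmp1b was listed at 0 in 19 of 20 libraries.

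Promoters of metalloproteinases are textbook targets of AP-1, the Fos and Jun dimers that act below interleukin 1 and growth factors. RefSeq promoters on GRCm38.p6 were matched for 7 of the 10 members, with 9 transcript starts among them. The AP-1 letters TGANTCA (N is any base, and the motif is its own reverse complement) were found in the 250 bases before the start in 4 of these 7 genes. By transcript start that is 4 of 9, against 6.75% of 32851 promoters. The shares of all promoters given here count starts and not genes. The 4 genes are the members of the chromosome 9 cluster, and their last 100 bases before the start are printed here with the AP-1 match in capitals, since the 3 members called in any comparison are among them. For Mmp12 the match is before the downstream one of its starts. The stretches are chr9:7272414-7272513 for Mmp13, chr9:7347274-7347373 for Mmp12, chr9:7445722-7445821 for Mmp3 and chr9:7502242-7502341 for Mmp10, all on the plus strand and 5′ to 3′.
Mmp13: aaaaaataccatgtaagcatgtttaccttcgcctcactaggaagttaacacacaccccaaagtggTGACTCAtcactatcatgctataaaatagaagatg
Mmp12: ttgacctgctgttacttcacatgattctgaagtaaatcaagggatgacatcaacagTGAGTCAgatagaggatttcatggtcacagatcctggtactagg
Mmp3: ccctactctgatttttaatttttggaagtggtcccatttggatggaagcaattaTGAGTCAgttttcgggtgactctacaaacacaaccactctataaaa
Mmp10: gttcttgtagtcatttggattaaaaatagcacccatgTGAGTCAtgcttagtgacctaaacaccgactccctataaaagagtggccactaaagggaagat

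The match begins 35 bases before the start of Mmp13, 44 before that of Mmp12, 46 before that of Mmp3 and 63 before that of Mmp10. Mmp3, Mmp10 and Mmp12 hold the letters TGAGTCA and Mmp13 holds TGACTCA. The letters TATAAA, the core of a TATA box, were found before the starts of Mmp13, Mmp3 and Mmp10, against 12.4% of all promoters. The letters AACCACA, bound by RUNX factors, were found for Mmp13 alone among the 7 genes and in 4.4% of all promoters. An Ets-type site, AGGAAG, was found for Mmp13, Mmp12, Mmp3 and Mmp14 and in 29.5% of all promoters. For Mmp12 this match is before the upstream start, not in the stretch printed here. All motifs were searched on both strands, and none of these matches overlaps an AP-1 match. Such matches describe letters in a window and are not evidence of binding.

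Mmp13 had the highest level of the family. Its FPKM, a value per length of gene, was above that of Mmp2 in 20 of 20 libraries, and it made up 57.3% ± 2.46 of the summed FPKM of the 10 members in 25HC3S, 52.6% ± 1.44 in 25HC, 50.9% ± 2.47 in GW3965 and 54.3% ± 4.45 in Vehicle (SD, n = 5 each). By median FPKM over 20 libraries the order was Mmp13 (349.5), Mmp2 (154), Mmp14 (89.8), Mmp23 (20.5), Mmp11 (14.0), Mmp3 (10.8), Mmp19 (9.24), Mmp12 (1.86), Mmp10 (0.427) and Mmp9 (0.108). Of the 9 neighbouring pairs in this order, 4 had ranges that did not overlap over all libraries: Mmp13 above Mmp2, Mmp14 above Mmp23, Mmp19 above Mmp12 and Mmp12 above Mmp10. Mmp11 was above Mmp3 in only 14 of 20 libraries and Mmp3 above Mmp19 in 15. The summed FPKM of the family averaged 679 ± 47.2 in 25HC3S, 682 ± 26.8 in 25HC, 589 ± 30.1 in GW3965 and 585 ± 68.5 in Vehicle (SD, n = 5 each). The medians of these sums were 665, 695, 581 and 610 FPKM in the same order, and the Vehicle sums ranged from 510 to 673 FPKM. The libraries that stood apart are in these sums and in the shares of Mmp13, which are not given here without them.

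The distances between members depend on the length used. For all 10 members the deposited gene length equals the union of the exons of every transcript in GENCODE M21, which is 7237 bases for Mmp12 against 3607 for its longest coding transcript, and 5960 against 3238 for Mmp14. Over the longest coding transcript, the median was 165 FPKM for Mmp14 and 169 FPKM for Mmp2, and it was 3.74 FPKM for Mmp12 and 9.60 FPKM for Mmp19. The order of the 10 medians was the same over this length. Differences between groups within a gene do not depend on this length except through the added pseudocount of 1.

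**Figure D1:**
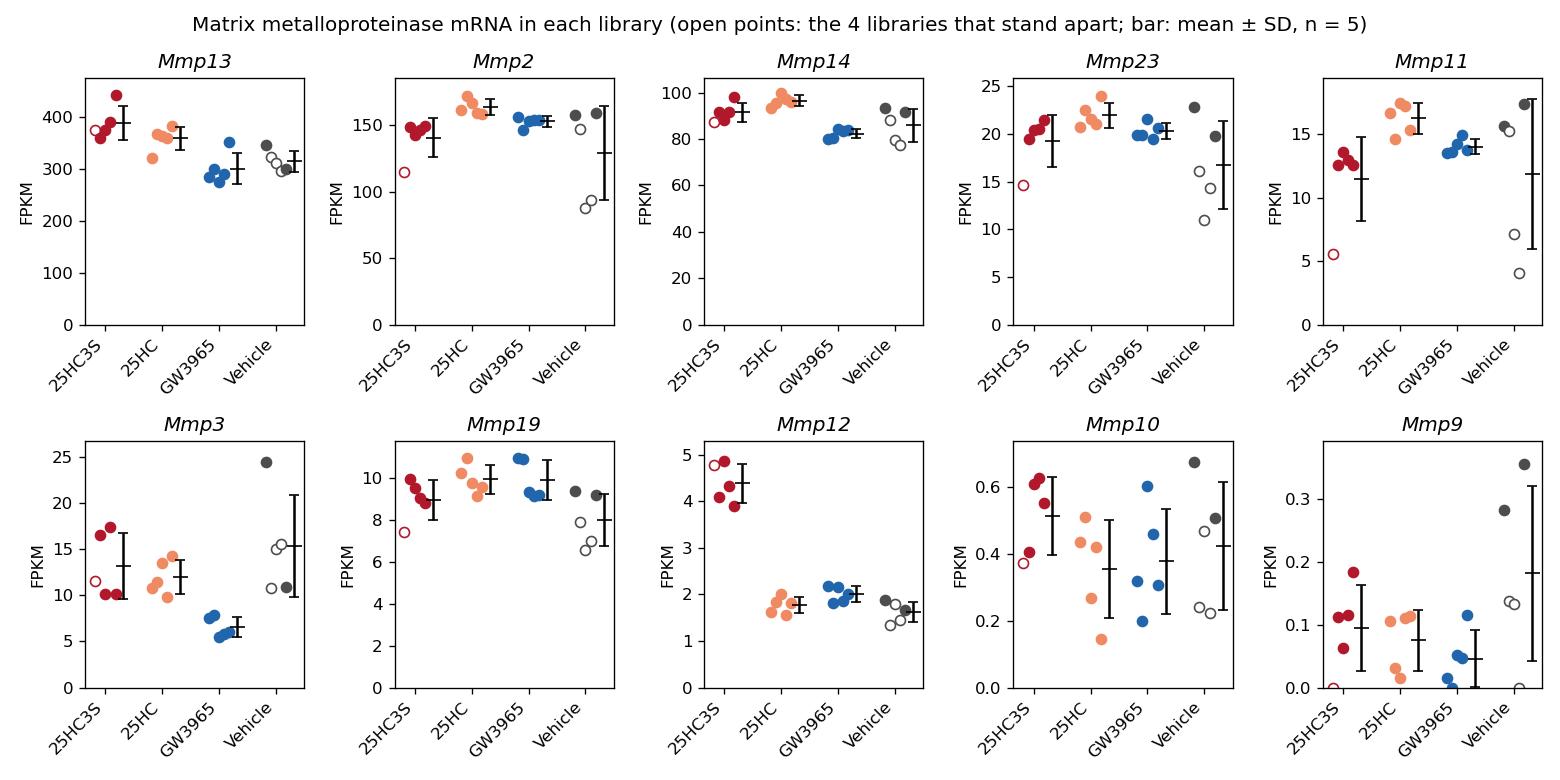
FPKM of the 10 metalloproteinases in each of the 20 libraries (points, by group; open points are the 4 libraries that stood apart), with the group mean ± SD (n = 5) beside them; each panel has its own linear axis from 0. The Mmp12 points of 25HC3S lie between 3.89 and 4.85 FPKM, all above the other groups, and the Mmp3 points of GW3965 lie between 5.43 and 7.89 FPKM, all below the other groups.

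Mmp12 encodes the macrophage metalloelastase, which degrades elastin and is made mainly by macrophages. It rose in 25HC3S against each of the other 3 groups. Its values were 4.77, 4.09, 4.85, 4.33 and 3.89 FPKM in 25HC3S, 1.62, 1.83, 2.01, 1.56 and 1.81 FPKM in 25HC, 2.18, 1.81, 2.16, 1.85 and 2.00 FPKM in GW3965, and 1.87, 1.34, 1.79, 1.46 and 1.65 FPKM in Vehicle. Every library of 25HC3S was above every other library, while the other 3 groups overlapped each other. Behind these values stand 475 to 636 fragments per library in 25HC3S and 140 to 288 in the others. On the log2(FPKM + 1) scale, which understates changes of low values, the difference was 1.04 ± 0.08 from Vehicle (SE; limma, adjusted p = 9.8e-08), and the ratio of the mean FPKM was 2.70. Against 25HC, at the same dose and time, the difference was 0.96 ± 0.08 (limma, adjusted p = 2.5e-07), with a ratio of 2.48. Against GW3965, given at a lower molar dose, it was 0.84 ± 0.08 (limma, adjusted p = 3.9e-07), with a ratio of 2.19. For 25HC against Vehicle the difference was 0.08 ± 0.08 (adjusted p = 0.446; interval -0.08 to 0.24), and for GW3965 against Vehicle 0.20 ± 0.08 (adjusted p = 0.102; interval 0.04 to 0.36). The GW3965 value was called without replicate 1 of Vehicle, at 0.23 (limma, adjusted p = 0.0415).

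Macrophage markers moved beside Mmp12, in both directions. The summed FPKM of the 14 macrophage markers was 397 to 765 in 25HC3S, 739 to 1051 in 25HC, 937 to 1089 in GW3965 and 445 to 1065 in Vehicle. Much of this sum is Lyz2, which averaged 323, 423, 518 and 315 FPKM in the same order. Aif1 was at 0 in 1 library, and no other macrophage marker was at 0 in any. Against Vehicle, 1 of the 14 rose in 25HC3S and 3 fell (0.463% and 1.14% of all genes), with 10 not passing. Cd14, the lipopolysaccharide coreceptor, rose by 0.75 ± 0.11 (limma, adjusted p = 0.000606). Mrc1, the mannose receptor, fell to 6.40 ± 0.523 FPKM in 25HC3S, against 25.2 ± 5.37 FPKM in Vehicle (SD, n = 5 each; limma, adjusted p = 9.8e-08), and Adgre1 and Fcgr1 fell by 0.83 and 0.84. Mrc1 averaged 20.5 ± 3.61 FPKM in 25HC and 12.9 ± 1.13 FPKM in GW3965 (SD, n = 5 each). Against 25HC, 1 of the 14 rose in 25HC3S and 3 fell (0.157% and 0.659% of all genes). Against GW3965, 1 rose in 25HC3S and 6 fell (2.13% and 2.51%). In GW3965 against Vehicle 2 fell (2.97%), in 25HC against GW3965 1 rose (0.894%), and in 25HC against Vehicle none was called. Leaving out the 4 libraries that stood apart, 1 rose in each of the 3 comparisons of 25HC3S, and 7 fell against Vehicle, 9 against 25HC and 10 against GW3965. In that fit 1.33%, 2.49% and 8.59% of all genes rose in these comparisons, and 2.63%, 4.70% and 9.27% fell. There 1 marker fell in GW3965 against Vehicle (3.79%), and 1 rose and 1 fell in 25HC against GW3965 (6.82% and 6.30%). Cd14 had 35.2 to 50.7 FPKM in 25HC3S, 20.4 to 29.3 FPKM in 25HC, 23.1 to 27.7 FPKM in GW3965 and 22.0 to 28.7 FPKM in Vehicle, so that 25HC3S did not overlap the others, as for Mmp12. The part of macrophage number or state in the Mmp12 values was not tested.

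**Figure D2:**
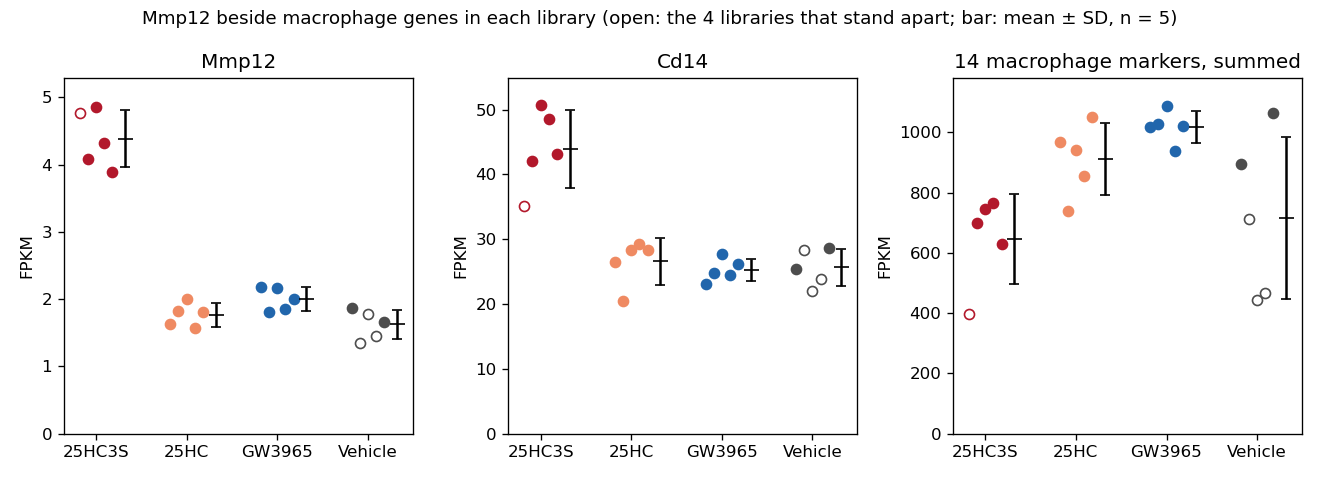
FPKM of Mmp12, of Cd14 and of 14 macrophage markers summed in each library (points, by group; open points are the 4 libraries that stood apart), with the group mean ± SD (n = 5) beside them. Mmp12 and Cd14 are highest in 25HC3S, at 3.89 to 4.85 and 35.2 to 50.7 FPKM, while the sum of the markers there, 397 to 765 FPKM, is not above the other groups. In the libraries that did not stand apart the sum is 629 to 765 FPKM in 25HC3S, and 894 and 1065 FPKM in Vehicle.

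Mmp3 encodes stromelysin 1, which cuts proteoglycans and activates other proenzymes of the family. It fell in GW3965. Its values were 11.5, 16.6, 10.2, 17.4 and 10.2 FPKM in 25HC3S, 10.7, 11.4, 13.5, 9.87 and 14.3 FPKM in 25HC, 7.55, 7.89, 5.43, 5.82 and 6.02 FPKM in GW3965, and 24.5, 10.8, 15.0, 15.6 and 10.9 FPKM in Vehicle. All 5 libraries of GW3965 were below all 15 others, and replicate 1 of Vehicle was the highest of the 20. The difference of GW3965 from Vehicle was -1.07 ± 0.19 (SE; limma, adjusted p = 0.00205), with means of 6.54 ± 1.10 FPKM in GW3965 and 15.3 ± 5.56 FPKM in Vehicle (SD, n = 5 each), a ratio of 0.427. Without replicate 1 of Vehicle it was -0.89 (limma, adjusted p = 0.00265). 25HC3S was above GW3965 by 0.89 ± 0.19 (limma, adjusted p = 0.00747) and 25HC was above GW3965 by 0.78 ± 0.19 (limma, adjusted p = 0.0414). The call of 25HC against GW3965 was lost without any 1 of the 10 libraries of these 2 groups (adjusted p of 0.0518 to 0.131). It was also lost with no filter on low values (0.0995) and with voom on the recovered fragments (0.0559), while the difference stayed between 0.72 and 0.87.

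The oxysterols did not pass for Mmp3 against Vehicle. The difference was -0.18 ± 0.19 for 25HC3S (limma, adjusted p = 0.613; interval -0.58 to 0.22) and -0.29 ± 0.19 for 25HC (adjusted p = 0.282; interval -0.69 to 0.12). Between 25HC3S and 25HC it was 0.11 ± 0.19 (adjusted p = 0.884; interval -0.30 to 0.51), which leaves room for a difference in either direction. Mmp10, which encodes stromelysin 2, an enzyme close to stromelysin 1 and its neighbour on chromosome 9, was near the limit of detection. It had 0.373 to 0.625 FPKM in 25HC3S, 0.146 to 0.508 in 25HC, 0.198 to 0.603 in GW3965 and 0.222 to 0.674 in Vehicle, from 5 to 22 fragments per library. The 4 groups overlapped, and in a fit of all genes without the filter no comparison of Mmp10 had an adjusted p under 0.713.

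Mmp13 encodes collagenase 3, the main collagenase of mouse cartilage. Its values were 375, 360, 375, 391 and 444 FPKM in 25HC3S, 322, 368, 363, 359 and 383 FPKM in 25HC, 285, 299.8, 275, 291 and 353 FPKM in GW3965, and 347, 322, 311, 296 and 301 FPKM in Vehicle. Every library of 25HC3S was above every library of GW3965 and of Vehicle, and 25HC overlapped all other groups. Mmp13 rose in 25HC3S against GW3965 by 0.37 ± 0.08 (limma, adjusted p = 0.0049). Against Vehicle the difference for 25HC3S was 0.30 ± 0.08 (limma, adjusted p = 0.0546), with means of 389 ± 32.4 FPKM in 25HC3S and 315 ± 20.2 FPKM in Vehicle (SD, n = 5 each). This missed the threshold and was called without replicate 1 of 25HC3S (0.0443), replicate 5 of GW3965 (0.0383), replicate 1 of Vehicle (0.0266) or replicate 2 of Vehicle (0.0488). In the other fits without 1 library the adjusted p reached 0.170. None of the 8 other settings, among them the fit of 16 libraries, called it, with an adjusted p of up to 0.601. The difference stayed between 0.25 and 0.35 throughout. For 25HC the difference was 0.19 ± 0.08 from Vehicle (adjusted p = 0.148) and 0.26 ± 0.08 from GW3965 (adjusted p = 0.122). The difference from GW3965 was called over the 16 libraries (0.26, limma, adjusted p = 0.0243), in a fit of only these 2 groups (0.0265) and without replicate 5 of GW3965 (0.32, adjusted p = 0.0359). 25HC3S and 25HC differed by 0.11 ± 0.08 (adjusted p = 0.834; interval -0.05 to 0.27), and GW3965 and Vehicle by -0.07 ± 0.08 (adjusted p = 0.511; interval -0.23 to 0.09).

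Mmp14 encodes the membrane-type enzyme that sits on the cell surface and, with Timp2, activates the gelatinase Mmp2. It had 87.2, 91.6, 88.2, 91.7 and 98.2 FPKM in 25HC3S, 93.5, 95.7, 99.9, 97.4 and 96.0 FPKM in 25HC, 79.8, 80.5, 84.1, 83.6 and 83.7 FPKM in GW3965, and 93.3, 88.3, 79.5, 77.4 and 91.4 FPKM in Vehicle. 25HC did not overlap GW3965 or Vehicle, and 25HC3S did not overlap GW3965, but the differences were small. They were 0.23 ± 0.06 for 25HC against GW3965 (limma, adjusted p = 0.0550), 0.15 ± 0.06 for 25HC3S against GW3965 (adjusted p = 0.225) and 0.17 ± 0.06 for 25HC against Vehicle (adjusted p = 0.147). Over the 16 other libraries, Mmp14 was called in GW3965 against Vehicle (-0.16, adjusted p = 0.0153), in 25HC3S against GW3965 (0.16, adjusted p = 0.00136) and in 25HC against GW3965 (0.23, adjusted p = 7.35e-05). The last of these was also called with a pseudocount of 0.1 (limma, adjusted p = 0.0479), in a fit of only these 2 groups (0.000249) and without replicate 1 of 25HC3S or any 1 of replicates 1 to 4 of Vehicle (0.0264 to 0.0469).

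Mmp2 encodes gelatinase A, which degrades denatured collagen. It had 115, 149, 143, 147 and 149.9 FPKM in 25HC3S, 161, 172, 167, 159 and 159 FPKM in 25HC, 157, 146, 154, 154 and 154 FPKM in GW3965, and 158, 148, 88.2, 94.1 and 159 FPKM in Vehicle. The 3 lowest values are those of replicates 3 and 4 of Vehicle and replicate 1 of 25HC3S, all among the 4 libraries that stood apart. No comparison passed. The difference from Vehicle was 0.16 ± 0.14 for 25HC3S, 0.38 ± 0.14 for 25HC and 0.29 ± 0.14 for GW3965, with adjusted p of 0.531, 0.147 and 0.160 (limma). Without the 4 libraries these were -0.11, 0.05 and -0.05, none of them called, and 25HC3S was below 25HC by 0.15 (called, adjusted p = 0.00439), where the difference over all 20 libraries was -0.22 ± 0.14 (adjusted p = 0.834). Also called without the 4 was 25HC over GW3965 by 0.10 (adjusted p = 0.0300).

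Mmp9 encodes gelatinase B, an enzyme known from osteoclasts and neutrophils, and was close to 0 in these cells. It had 0 to 0.184 FPKM in 25HC3S, 0.0144 to 0.114 in 25HC, 0 to 0.116 in GW3965 and 0 to 0.355 in Vehicle, from 0 to 23 fragments per library. The groups overlapped, and in a fit without the filter no adjusted p was under 0.194. The 3 libraries with 0 fragments could have held up to 0.0482 to 0.0544 FPKM, the level of 3 fragments, which covers counting error only. Among neutrophil markers the summed FPKM was 0 to 1.18 over all libraries. Of the 8 osteoclast markers, 4 passed the filter: Ctsk had 55.5 to 162 FPKM, Nfatc1 5.96 to 9.04, Atp6v0d2 0.971 to 4.19 and Acp5 0.252 to 2.80. Oscar, Ocstamp and Dcstamp did not exceed 0.564 FPKM, and Calcr was at 0 in 17 libraries.

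Mmp11, Mmp19 and Mmp23 passed in no comparison over all 20 libraries. Mmp11 encodes stromelysin 3, which furin activates inside the cell. It had 5.59, 12.6, 13.6, 13.0 and 12.6 FPKM in 25HC3S, 16.7, 14.7, 17.5, 17.2 and 15.3 FPKM in 25HC, 13.6, 13.6, 14.3, 14.9 and 13.8 FPKM in GW3965, and 15.7, 15.2, 7.13, 4.04 and 17.4 FPKM in Vehicle. The 3 lowest libraries were again replicates 3 and 4 of Vehicle and replicate 1 of 25HC3S, and all 25HC libraries were above all 25HC3S libraries. The SD was 49.7% of the mean in Vehicle and 4.19% in GW3965. Against Vehicle the difference was 0.06 ± 0.28 for 25HC3S, 0.58 ± 0.28 for 25HC and 0.38 ± 0.28 for GW3965 (limma, adjusted p of 0.923, 0.170 and 0.331). The mean FPKM of 25HC3S, 11.5, was below the 11.9 of Vehicle, although the difference on the log2 scale was positive. Without the 4 libraries the log2 differences from Vehicle were all negative, at -0.33 for 25HC3S (called, adjusted p = 0.00921), -0.02 for 25HC and -0.22 for GW3965 (called, adjusted p = 0.0433). Without them 25HC3S was also below 25HC by 0.31 (called, adjusted p = 0.00146; -0.52 ± 0.28 over all 20) and 25HC above GW3965 by 0.20 (called, adjusted p = 0.0112), a call also made in a fit of only these 2 groups (0.0252).

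Mmp23, a type II membrane protein that is released by cleavage, had 14.6, 19.4, 20.4, 20.5 and 21.4 FPKM in 25HC3S, 20.7, 22.5, 21.6, 21.04 and 23.9 FPKM in 25HC, 19.9, 19.9, 21.6, 19.5 and 20.6 FPKM in GW3965, and 22.8, 16.1, 11.0, 14.3 and 19.7 FPKM in Vehicle. The 4 lowest values are those of the 4 libraries that stood apart. Its differences from Vehicle were 0.22 ± 0.14 for 25HC3S, 0.41 ± 0.14 for 25HC and 0.30 ± 0.14 for GW3965 (limma, adjusted p of 0.402, 0.147 and 0.144), and -0.05, 0.05 and -0.06 without the 4. The GW3965 value was called without replicate 1 of Vehicle, at 0.42 (limma, adjusted p = 0.0279). Mmp19, a secreted enzyme with many matrix substrates, had 7.39 to 9.94 FPKM in 25HC3S, 9.14 to 10.9 in 25HC, 9.10 to 10.9 in GW3965 and 6.56 to 9.36 in Vehicle. Its differences from Vehicle were 0.15 ± 0.09, 0.29 ± 0.09 and 0.28 ± 0.09 for 25HC3S, 25HC and GW3965 (adjusted p of 0.402, 0.147 and 0.0699), and 0.01, 0.09 and 0.08 without the 4. The difference of GW3965 was called without replicate 1 of 25HC3S (0.28, limma, adjusted p = 0.0450), replicate 1 of Vehicle (0.34, 0.0213) or replicate 5 of Vehicle (0.33, 0.0265).

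**Figure D3:**
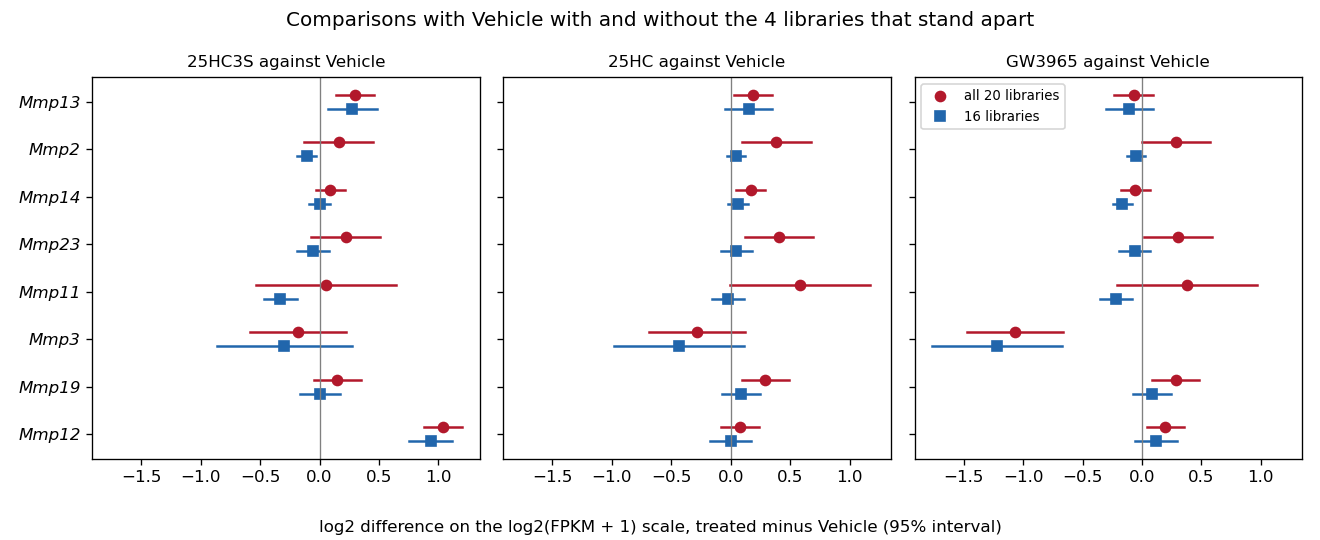
Log2 difference from Vehicle with its 95% interval for the 8 tested metalloproteinases, fitted to all 20 libraries (circles) and to the 16 left without replicate 1 of 25HC3S and replicates 2, 3 and 4 of Vehicle (squares). Mmp12 in 25HC3S (1.04 and 0.93) and Mmp3 in GW3965 (-1.07 and -1.22) stay clear of 0 in both fits, while Mmp2, Mmp11 and Mmp23 change sign in 25HC3S and in GW3965.

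Counted over the 8 tested members, 25HC3S against Vehicle gave 1 that rose (Mmp12), 0 that fell and 7 that did not pass, where 1.61% of all 12752 genes were called (0.463% higher and 1.14% lower). GW3965 against Vehicle gave 0 that rose, 1 that fell (Mmp3) and 7 that did not pass, where 6.46% of all genes were called (3.49% higher and 2.97% lower). The split of these genes was 445 higher and 379 lower, and 348 higher and 467 lower with scaling by total fragments. 25HC against Vehicle gave 0 calls with limma and 0 with voom, where 0.0392% of all genes were called (0.0314% higher and 0.00784% lower). At an unadjusted p under 0.05 it had 5 of the 8 members and 3863 of all genes. That count changed with single Vehicle libraries: without replicate 1 of Vehicle, and likewise without replicate 5, Mmp2, Mmp14, Mmp19 and Mmp23 were called as higher in 25HC, with 2659 and 2085 genes called in all. Of the 4 Vehicle libraries left in either fit, 3 are among those that stood apart. The 3 comparisons with Vehicle share its 5 libraries.

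Between treatments, 25HC3S against 25HC, the pair that differs by the sulfate at matched dose and time, gave 1 member that rose (Mmp12), 0 that fell and 7 that did not pass, where 0.816% of all genes were called (0.157% higher and 0.659% lower). For the 7 others the intervals of the difference reached from -1.11 to 0.07 for Mmp11, the widest, and from -0.20 to 0.04 for Mmp14, the narrowest. 25HC3S against GW3965 gave 3 that rose (Mmp3, Mmp12 and Mmp13), 0 that fell and 5 that did not pass, where 4.63% of all genes were called (2.13% higher and 2.51% lower). The split was 271 higher and 320 lower, and 346 higher and 255 lower with scaling by total fragments. 25HC against GW3965 gave 1 that rose (Mmp3), 0 that fell and 7 that did not pass, where 1.74% of all genes were called (0.894% higher and 0.847% lower). The doses of the oxysterols and of GW3965 differ.

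In the fit of 16 libraries, other members passed as well. In 25HC3S against Vehicle, Mmp12 was higher and Mmp11 lower, where 3.95% of all genes were called (1.33% higher and 2.63% lower). In GW3965 against Vehicle, Mmp3, Mmp11 and Mmp14 were lower, where 7.77% were called (3.98% higher and 3.79% lower). In 25HC against Vehicle limma called 0 members, with 0 at an unadjusted p under 0.05, where 0.0235% of all genes were called (0.0157% higher and 0.00784% lower). In 25HC3S against 25HC, Mmp12 was higher and Mmp2 and Mmp11 lower, where 7.18% were called (2.49% higher and 4.70% lower). In 25HC3S against GW3965, Mmp3, Mmp12, Mmp13 and Mmp14 were higher, where 17.9% were called (8.59% higher and 9.27% lower). In 25HC against GW3965, Mmp2, Mmp3, Mmp11, Mmp13 and Mmp14 were higher, where 13.1% were called (6.82% higher and 6.30% lower).

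Groups without overlap were found for 2 members in 25HC3S against Vehicle (Mmp12 and Mmp13; 2.16% of all genes), 1 in 25HC against Vehicle (Mmp14; 2.33%) and 1 in GW3965 against Vehicle (Mmp3; 7.07%). Between treatments there were 3 in 25HC3S against 25HC (Mmp2, Mmp11 and Mmp12; 7.29%), 4 in 25HC3S against GW3965 (Mmp3, Mmp12, Mmp13 and Mmp14; 12.2%) and 3 in 25HC against GW3965 (Mmp2, Mmp3 and Mmp14; 11.1%). The median difference of the 8 members was 0.15 in 25HC3S, 0.24 in 25HC and 0.24 in GW3965 against Vehicle, beside 0.02, 0.03 and 0.02 over all genes tested. Over the 16 libraries the medians of the members were -0.03, 0.05 and -0.08.

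**Figure D4:**
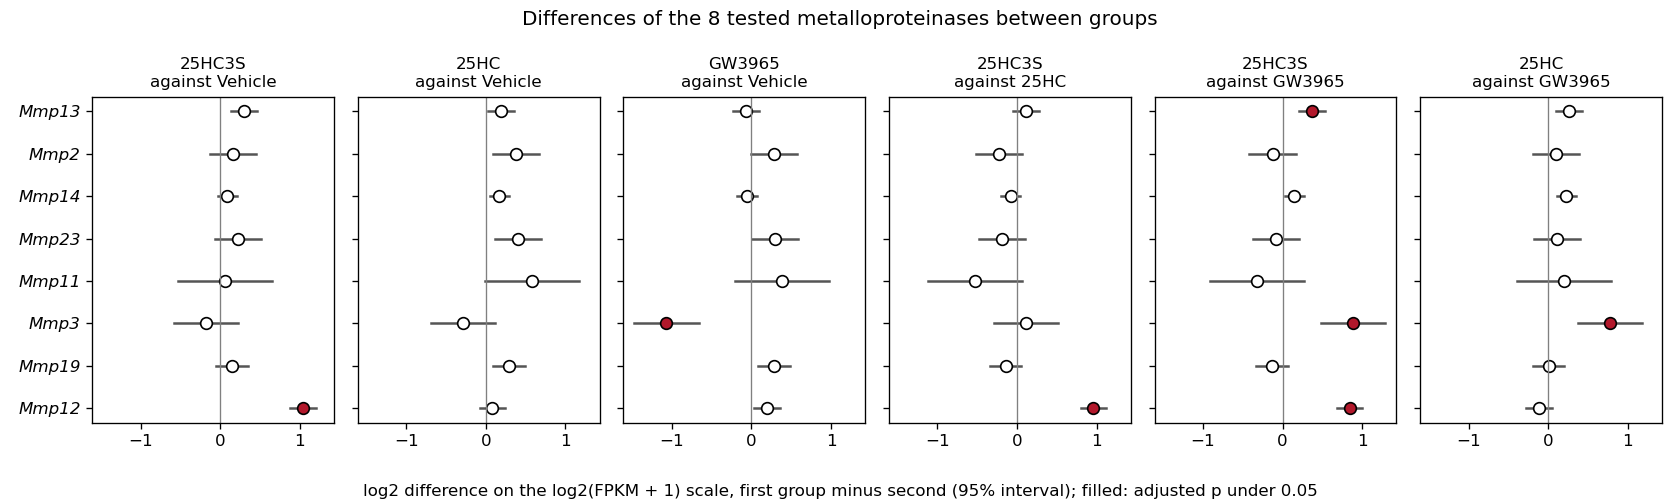
Log2 difference, first group minus second, with its 95% interval for the 8 tested metalloproteinases in the 6 comparisons, on the log2(FPKM + 1) scale; filled points have an adjusted p under 0.05. Filled points are Mmp12 in the 3 comparisons of 25HC3S, Mmp3 in the 3 comparisons with GW3965 and Mmp13 in 25HC3S against GW3965.

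For the 3 members called in any comparison, the closest patterns among all tested genes outside the family were found by the root mean square difference of z-scores over the 20 libraries, where 0 is an identical pattern. For Mmp12 these were B4galt5 (0.432), Trem1 (0.520), Xxylt1 (0.529), Cd14 (0.549) and Relb (0.594), of which B4galt5 and Cd14 were again among the 5 closest over the 16 libraries. Trem1, a receptor of activated myeloid cells, was picked by this likeness, so its pattern is no separate evidence, and it did not recur over the 16 libraries. It averaged 1.52 FPKM in 25HC3S, 0.716 in 25HC, 0.622 in GW3965 and 0.482 in Vehicle. Only its mean in 25HC3S reached the filter level of 1 FPKM. For Mmp3 they were Il16 (0.590), Neil3 (0.653), Ncaph (0.660), C3 (0.666) and Arfip1 (0.670), of which C3, the central complement component, recurred. For Mmp13 they were Ssrp1 (0.579), Aplp2 (0.633), Neurl1b (0.650), Sgo1 (0.678) and Ckap2 (0.683), of which Ckap2 recurred. The libraries share depth and treatment, so likeness over them is a description.

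Among the inhibitors of the family, 5 of 7 genes were tested, and over all 20 libraries Timp3, the inhibitor that binds to the matrix, was the one called. It had 334 to 409 FPKM in 25HC3S, 381 to 416 FPKM in 25HC, 529 to 556 FPKM in GW3965 and 407 to 475 FPKM in Vehicle. All GW3965 libraries were above all others. Timp3 rose in GW3965 against Vehicle by 0.32 ± 0.06 (limma, adjusted p = 0.00374) and fell in 25HC3S against Vehicle by 0.26 ± 0.06 (limma, adjusted p = 0.0438). 25HC3S was below GW3965 by 0.58 and 25HC was below GW3965 by 0.47 (limma, adjusted p = 5.1e-06 and 0.000167). Timp1, the soluble inhibitor, averaged 699 FPKM in 25HC3S, 661 in 25HC, 627 in GW3965 and 551 in Vehicle, with no comparison passing over all 20 libraries. Timp2, the partner of Mmp14, averaged 647 FPKM in 25HC3S, 710.1 in 25HC, 675 in GW3965 and 582 in Vehicle, again with no comparison passing over all 20. Over the 16 libraries, 1 inhibitor was lower in 25HC3S against Vehicle (2.63% of all genes) and 1 against 25HC (4.70%). Against GW3965, 1 was higher and 1 lower in 25HC3S (8.59% and 9.27%), and 1 was lower in 25HC (6.30%). In GW3965 against Vehicle 1 was higher (3.98%), and in 25HC against Vehicle none was called.

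Of 7 genes for activators of proenzymes, 5 were tested. In 25HC3S against Vehicle, Pcsk6, a proprotein convertase, rose by 0.25 (limma, adjusted p = 0.0402) and Plau, the urokinase that makes plasmin, fell by 0.82 (limma, adjusted p = 0.00329; -0.49 and still called without the 4 libraries). In GW3965 against Vehicle, Pcsk6 rose by 0.27 (limma, adjusted p = 0.0110) and Ctsb, the lysosomal protease cathepsin B, rose by 0.58 (limma, adjusted p = 0.0435), but without the 4 libraries Ctsb was at 0.13 and no longer called. Ctsb fell in 25HC3S against GW3965 by 0.60 (limma, adjusted p = 0.0421). Over the 16 libraries, 1 of the 5 was higher and 2 were lower in 25HC3S against Vehicle (1.33% and 2.63% of all genes). In 25HC3S against 25HC, 2 were lower (4.70%). Against GW3965, 1 was higher and 2 lower in 25HC3S (8.59% and 9.27%), and 2 were lower in 25HC (6.30%). In GW3965 against Vehicle 1 was higher (3.98%), and in 25HC against Vehicle none was called.

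Of 15 genes for AP-1, Ets, NF-κB and other regulators of these promoters, 13 were tested, and with limma, as with voom, 0 were called in each of the 6 comparisons, with 0 to 5 at an unadjusted p under 0.05. The 5 were in 25HC against Vehicle, where 3863 of all 12752 genes were under that cut. Over the 16 libraries, 4 of the 13 were higher in 25HC3S against GW3965 (Ets2, Fos, Junb and Cebpb; 8.59% of all genes were higher) and 3 in 25HC against GW3965 (Ets1, Ets2 and Cebpb; 6.82%). In that fit 1 was higher in 25HC3S against Vehicle (Fos; 1.33%), 1 in 25HC3S against 25HC (Fos; 2.49%) and 1 in GW3965 against Vehicle (Epas1; 3.98%), and none was lower. Fos, a subunit of AP-1, differed there by 0.43 for 25HC3S against Vehicle (limma, adjusted p = 0.0172), 0.39 against 25HC (0.00357) and 0.52 against GW3965 (9.8e-05). Of 18 genes for cytokines, growth factors and receptors above these promoters, 14 were tested. Tnfrsf1a, the receptor of tumour necrosis factor, rose in GW3965 against Vehicle by 0.72 (limma, adjusted p = 0.00374), and by 0.29 without the 4 libraries. Sdc4, a proteoglycan coreceptor of the cell surface, fell there by 0.48 (limma, adjusted p = 0.0133), and by 0.20 without the 4 libraries. In 25HC3S against GW3965, Sdc4 rose by 0.59 (limma, adjusted p = 0.00198) and Il1r1, the signalling receptor of interleukin 1, rose by 0.28 (limma, adjusted p = 0.0418). Over the 16 libraries, 6 of the 14 were higher in 25HC3S against 25HC (2.49% of all genes) and 3 against Vehicle (1.33%), with none lower. Against GW3965, 5 were higher and 3 lower in 25HC3S (8.59% and 9.27%), and 2 higher and 3 lower in 25HC (6.82% and 6.30%). In GW3965 against Vehicle, 3 were higher and 1 lower (3.98% and 3.79%), and in 25HC against Vehicle none was called.

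All 14 genes for matrix substrates were tested, and Lum, which encodes the collagen-binding proteoglycan lumican, was the one called: it fell in 25HC3S against 25HC by 0.28 (limma, adjusted p = 0.0493). Leaving out the 4 libraries, 7 of the 14 were called as lower in 25HC3S against 25HC (Lum, Acan, Col3a1, Dcn, Eln, Col1a1 and Comp), where 4.70% of all genes were lower. In 25HC3S against GW3965, 1 was higher and 6 were lower (8.59% and 9.27% of all genes). In 25HC3S against Vehicle, Col3a1 and Eln were lower (2.63%), while in GW3965 against Vehicle, Col2a1 was higher and Spp1 lower (3.98% and 3.79%). In 25HC against GW3965, 3 were higher and 1 was lower (6.82% and 6.30%). The collagen gene Col3a1 was lower in 25HC3S in all 3 of its comparisons, by 0.49 against Vehicle, 0.50 against 25HC and 0.38 against GW3965 (limma, adjusted p = 1.33e-05, 1.96e-07 and 4.33e-07). Both genes for receptors that take up these proteases or cut collagen, Lrp1 and Mrc2, were tested. Over all 20 libraries limma and voom called 0 of them in each of the 6 comparisons, with 0 to 2 at an unadjusted p under 0.05. The 2 were in 25HC against Vehicle, where 3863 of all 12752 genes were under that cut. Over the 16 libraries, 1 of them was lower in 25HC3S against GW3965 (9.27% of all genes) and 1 higher in 25HC against GW3965 (6.82%). Of the 13 other genes of the family, Mmp16 and Mmp28 alone passed the filter. Mmp16, another membrane-type enzyme, averaged 2.03 FPKM in 25HC3S, 1.96 in 25HC, 1.63 in GW3965 and 2.34 in Vehicle, and Mmp28, the secreted epilysin, averaged 3.78 FPKM in 25HC3S, 3.96 in 25HC, 4.80 in GW3965 and 3.97 in Vehicle. Neither was called over all 20 libraries with limma or voom, with 0 to 2 of them at an unadjusted p under 0.05. The 2 were in GW3965 against Vehicle, where 4069 of all 12752 genes were under that cut. In the fit of 16 libraries Mmp28 was higher in GW3965 than in Vehicle by 0.31 (limma, adjusted p = 0.0236), lower in 25HC3S than in GW3965 by 0.37 (limma, adjusted p = 0.00057) and lower in 25HC than in GW3965 by 0.23 (limma, adjusted p = 0.0187). Mmp7 was at 0 in all 20 libraries and Mmp8, the neutrophil collagenase, reached at most 0.580 FPKM.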

How the data were processed

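RNA from 20 libraries was measured. The authors deposited 1 table of FPKM per gene with coordinates and gene lengths. The submitters' processing notes name CASAVA 1.8 and the aligner HISAT2 2.0.5. Which program counted fragments, with what strand setting and on which build, is not given in the sources used here. GENCODE M21 held 99.9% of the gene IDs, 98.3% of those with the same coordinates. Multiplying FPKM by gene length gave steps that are whole fragments, within 0.02 for 100% of values. The median ratio of a library to the mean of all libraries was the same, 1.01, in all 20, so the deposited values carry a scaling of that kind.

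Tests were run in R 4.3.3 with limma 3.58.1 on log2-transformed FPKM with a pseudocount of 1, with 1 mean per group over all 20 libraries, empirical Bayes with a trend, two-sided, for 6 comparisons. P-values were adjusted by Benjamini-Hochberg over the 12752 genes of a comparison, and 0.05 was the threshold for a call. The steps were tested on simulated data that had the same setting of spread for all genes and libraries. No simulated library stood apart, so this test does not show how the fit behaves with such libraries. Errors are standard errors unless marked SD. Differences between 2 libraries of a group exceeded sampling noise in every group, with a chi-square per gene of at least 2.62, so none was counted as a duplicate.

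All 10 members are named with their values. Of other lists, genes called in at least 1 comparison are named, save some macrophage markers that are only counted. Timp1, Timp2, Mmp16, Mmp28, Mmp7 and Mmp8 are named too and were added after their values were seen. Of the genes of lists called only over 16 libraries some are named and others only counted, and both were added after their values were seen. Those among the cell markers are not given, apart from the counts for macrophages. The members and lists were chosen with earlier results of these data known. Alternatives were a pseudocount of 0.1, no filter, fits of only the 2 groups compared, a replicate block, other scalings, voom on the recovered fragments, and fits without 1 library or without the 4 libraries that stood apart.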

Additional observations from a re-analysis of the deposited data

Results flagged for a closer look

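Of 40 groups of 5 values (10 genes in 4 groups), 2 had a value far from its group by Dixon's test, where chance flags about 1 in 20. Mmp2 had 115 FPKM in replicate 1 of 25HC3S, where the other 4 libraries of the group had 143 to 149.9 FPKM. Mmp11 had 5.59 FPKM in the same library, against 12.6 to 13.6 FPKM in the other 4. This library is one of the 4 that stood apart, and the cause was not tested.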

How the results depend on the processing

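The calls of Mmp12 in the 3 comparisons of 25HC3S, of Mmp3 in GW3965 against Vehicle and in 25HC3S against GW3965, and of Mmp13 in 25HC3S against GW3965 held in every alternative run. The call of Mmp3 in 25HC against GW3965 did not, as given above. Median scaling, among these alternatives, divided all 20 libraries by the same factor of 1.01 and so could hardly change a call. Where a setting moved a count, the cause was not tested. The 4 libraries that stood apart belong to neither 25HC nor GW3965. Leaving them out thus kept the differences between these groups, with a median of 0.15 for the members in both fits. It changed only the spread that these differences were weighed against.

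Members called. Without the 4 libraries that stood apart, 2 members were called in 25HC3S against Vehicle, 3 in GW3965 against Vehicle, 3 in 25HC3S against 25HC and 5 in 25HC against GW3965. In 25HC against GW3965, where 1 member was called, a pseudocount of 0.1 gave 2, fits of only the 2 groups 4, and no filter, the replicate block and voom 0. Leaving out 1 library at a time gave 1 to 2 members in 25HC3S against Vehicle, 0 to 4 in 25HC against Vehicle, 1 to 4 in GW3965 against Vehicle and 0 to 2 in 25HC against GW3965.

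All genes called. Fits of only the 2 groups gave 23 genes in 25HC3S against Vehicle (205 over all groups), 1 in 25HC against Vehicle (5), 152 in GW3965 against Vehicle (824), 205 in 25HC3S against 25HC (104), 1009 in 25HC3S against GW3965 (591) and 1427 in 25HC against GW3965 (222). Without the 4 libraries these counts were 504, 3, within 1.5 times, 916, 2278 and 1674. Leaving out 1 library at a time gave 98 to 622, 1 to 2659, 450 to 3247, 60 to 146, 447 to 743 and 152 to 304 genes in the same order. The extremes above 600 with Vehicle came without its replicate 1.

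The labels do not say that the replicate numbers mark a pairing, and none was assumed. Of 30 same-numbered pairs of libraries, 4 had deviations that correlated above 0.1 (-0.70 to 0.27). These correlations include the libraries that stood apart, so they cannot settle whether the numbers mark a pairing. With the replicate block, 1 gene was called in 25HC against Vehicle, 544 in GW3965 against Vehicle, and 0 members in 25HC against GW3965.

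Signs that turned. Without the 4 libraries, differences from Vehicle turned to -0.11 (Mmp2), -0.051 (Mmp23) and -0.33 (Mmp11) in 25HC3S, -0.023 (Mmp11) in 25HC, and -0.052 (Mmp2), -0.062 (Mmp23) and -0.22 (Mmp11) in GW3965, and Mmp23 turned to 0.011 in 25HC3S against GW3965. Leaving out 1 library moved Mmp11 in 25HC3S against Vehicle between -0.24 and 0.27, Mmp23 in 25HC3S against GW3965 between -0.12 and 0.011, and Mmp19 in 25HC against GW3965 between -0.027 and 0.041. Scaling by total fragments, chosen after seeing the data, gave medians of all genes of 0.0039 to 0.063 and turned the sign of no member's difference. Depth limits Mmp9 and Mmp10, with at most 23 and 22 fragments per library.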
